A study of Homo sapiens with 22 samples.

Results

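The strongest BMAL1 binding regions of THP-1 cells were examined outside the part of chromosome 1 that holds the highest scores. THP-1 is a human monocytic leukaemia line carrying the MLL-AF9 fusion, and a region here is a peak, a stretch where chromatin immunoprecipitation and sequencing (ChIP-seq) recovered more DNA than its surroundings. Members were the BMAL1 peaks with a deposited score of 40 or more, leaving out chromosome 19 and peaks with midpoints in chr1:40000000-45000000. The rule selected 344 of 9584 BMAL1 peaks. Outside the same areas lay 8756 peaks scoring below 40, which served as the comparison. Another 32 peaks of 40 or more lay in the chromosome 1 block and 21 on chromosome 19. All coordinates are those of build hg19.

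BMAL1, also named ARNTL, is a basic helix-loop-helix transcription factor that binds DNA as a heterodimer with CLOCK. The pair occupies E-box elements and switches on the genes of its own repressors, the PER and CRY proteins, and of the nuclear receptors REV-ERB and ROR, which closes the circadian feedback loop. A site bound by the heterodimer can be recovered with antibodies to either protein, so the CLOCK list offers a readout that the selection by BMAL1 score did not use.

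Of 22 libraries in the series, 15 of NOMO-1 and 7 of THP-1, 2 were used here. Both came from THP-1 cells, listed with no treatment and fixed with 2 mM of the protein crosslinker EGS for 30 minutes and then 1% formaldehyde for 30 minutes. One was precipitated with anti-Bmal1 (ab3350) and the other with anti-KAT13D/Clock (ab3517). With 1 library for each factor, no value below has a replicate check, no difference was tested, and intervals cover counting error only.

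Members were selected on their BMAL1 score, so scores are given as a description. The lowest was 40 and the highest 175, the median was 49.5, and the middle range between quartiles went from 43.5 to 60.6. The range was narrow for most members, as 175 of the 344 scored below 50, while 30 reached 80 and 12 reached 100. All members spanned 397 bp with both end positions counted. The limit of 40 cut through a continuous range, with 14 members at exactly 40 and 19 peaks at 39.5 just outside. The members just inside were chr1:159859591-159859987, chr2:201981731-201982127, chr3:57204097-57204493, chr4:25971975-25972371 and chr5:158789255-158789651, each scoring 40. The peaks just outside, each scoring 39.5, were chr1:12038295-12038691, chr1:27443219-27443615, chr1:54448065-54448461, chr2:43437652-43438048 and chr2:62413607-62414003. Of these 5 outside peaks, chr1:27443219-27443615 and chr2:43437652-43438048 overlapped CLOCK peaks scoring 18.5 and 27.

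The highest-scoring members were scattered over many chromosomes. The first was chr10:125919398-125919794 with a score of 175, whose nearest listed BMAL1 peak was 101630 bp away and scored only 11. The second, chr5:400106-400502 with 173.5, had another member 3102 bp away. They were followed by chr1:161469501-161469897 with 135, chr10:45875715-45876111 with 130 and chr8:6149240-6149636 with 126.5. Only the last of these overlapped a CLOCK peak. Next were chr1:145114564-145114960 with 122, chr5:36684278-36684674 with 117.5 and chr11:73096212-73096608 with 104. Scores of 101.5, 101 and 100.5 belonged to chr1:145281685-145282081, chr15:31556241-31556637 and chr8:103665795-103666191. The peak chr2:89872324-89872720 scored 100 and stood 1969970 bp from any other listed BMAL1 peak. Among these 12 members, a high score thus occurred both beside other strong peaks and in long stretches with no other listed peak.

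The remaining members of the 20 highest added chromosomes 3, 6, 7 and 12. They were chr1:11025135-11025531 with 99.5, chr8:70602238-70602634 with 96.5, chr3:138561097-138561493 with 94 and chr10:134046079-134046475 with 91. The list closed with chr7:77168007-77168403 at 89.5, chr6:127503568-127503964 at 89, chr12:113709819-113710215 at 88.5 and chr5:485973-486369 at 88. Of the 20, 1 overlapped a CLOCK peak (5.00%, exact 95% interval 0.127 to 24.9%), and for 3 the nearest listed BMAL1 peak itself scored 40 or more.

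Strong BMAL1 peaks carried a CLOCK peak more often than weaker ones, although nearly all carried none. Of the 344 members, 15 overlapped a CLOCK peak by at least 1 bp (4.36%, exact Clopper-Pearson 95% interval 2.46 to 7.09%), against 1.34% of all 9100 BMAL1 peaks outside the excluded areas. Among the 8756 peaks scoring below 40 the count was 107 (1.22%, interval 1.00 to 1.47%), so these intervals do not overlap. The remaining 329 members had no CLOCK peak. The same order was seen off chromosome 1, with 13 of 276 members (4.71%) and 99 of 7687 weaker peaks (1.29%). On chromosome 1, with 25 of the 269 CLOCK peaks, 2 of 68 members (2.94%, interval 0.358 to 10.2%) and 8 of 1069 weaker peaks (0.748%, interval 0.324 to 1.47%) overlapped one, and the intervals did overlap. In the left-out areas 4 of 21 strong peaks of chromosome 19 (19.05%, interval 5.45 to 41.9%) and 1 of 32 of the chromosome 1 block (3.12%, interval 0.0791 to 16.2%) did.

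The share with a CLOCK peak was already raised just below the limit. It was 0.740% of 2432 peaks scoring from 10 to under 12, 1.12% of 2050 scoring from 15 to under 20, and 1.69% of 1536 from 20 to under 30. Between 30 and 40 it was 3.36% (16 of 476, interval 1.93 to 5.40%), and between 40 and 50 it was 2.86% (5 of 175, interval 0.934 to 6.54%). Peaks from 50 to under 60 gave 5.33% (4 of 75) and those from 60 to under 80 gave 7.81% (5 of 64, interval 2.59 to 17.3%). At 80 or more it was 3.33% (1 of 30, interval 0.0844 to 17.2%). The intervals of the score classes from 30 upward all overlapped, so no step at 40 and no order among the strong classes can be read from these counts.

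**Figure D1:**
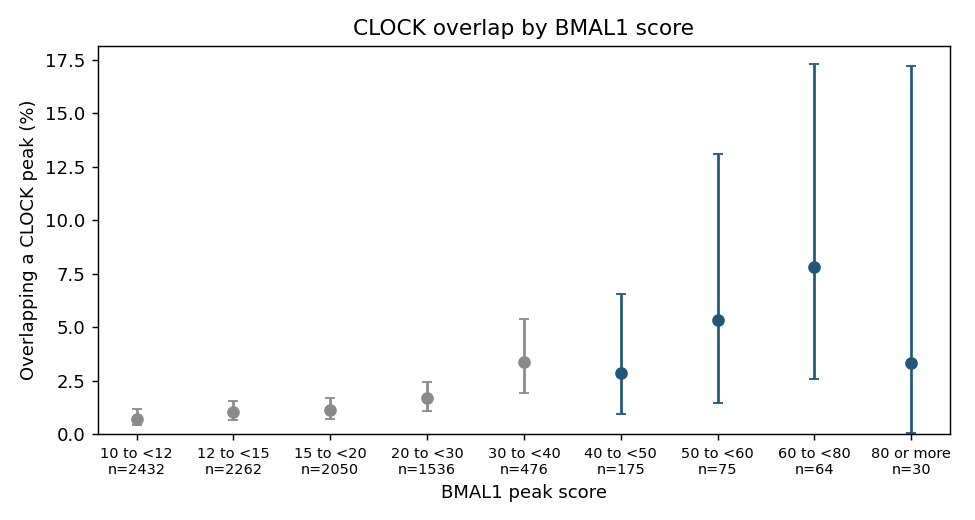
Percent of BMAL1 peaks outside the excluded areas that overlap a CLOCK peak, by class of BMAL1 score; points are shares, bars exact 95% intervals, blue classes score 40 or more, and n is the number of peaks. The share is 0.740% in the lowest class and 3.36% from 30 to 40, and the intervals of all classes from 30 upward overlap.

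The CLOCK peaks shared with members spanned the whole range of CLOCK scores. The highest CLOCK score of the whole list, 169, was at the member chr22:18688025-18688421, which scored 57 for BMAL1. The member chr16:33889197-33889593, scoring 58, had a CLOCK peak of 126.5, and chr4:2414678-2415074, scoring 72, had one of 124.5. CLOCK scored 116 at chr1:229203907-229204303 and 111.5 at chrX:153523618-153524014, where BMAL1 scored 74 and 58. At chr10:88731028-88731424 the scores were 99.5 for CLOCK and 56.5 for BMAL1. These 6 members held 6 of the 10 highest CLOCK peaks. Of the other 4, 3 had a BMAL1 partner scoring below 40 and 1 lay on chromosome 19.

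Between the 10 highest CLOCK peaks and the CLOCK median lay the partners of 3 members, with CLOCK scores of 67.5 at chr8:6149240-6149636, 58.5 at chr7:151620254-151620650 (BMAL1 score 63.5) and 42.5 at chr1:228743605-228744001 (BMAL1 score 69). At the other 6 members CLOCK scored below the CLOCK median of 24. These were chr16:2689609-2690005 with a CLOCK score of 23.5, chr10:7087975-7088371 with 19.5, chr17:80452202-80452598 and chr9:132109956-132110352 with 18.5 each, and chr17:45772716-45773112 and chr9:138951897-138952293 with 18 each, the lowest in the list. Their BMAL1 scores in the same order were 42, 45, 49.5, 49, 44 and 74.5. All 5 CLOCK-sharing members scoring under 50 for BMAL1 had a CLOCK score of at most 23.5, whereas 9 of the 10 scoring 50 or more had one of 42.5 or more. The exception was chr9:138951897-138952293. The 16 shared peaks scoring from 30 to under 40 for BMAL1 had a median CLOCK score of 38.25, above the 18.5 of the class from 40 to under 50. A steady rise of CLOCK score with BMAL1 score is therefore not read from this split. Among the 107 weaker BMAL1 peaks that overlapped CLOCK, the CLOCK scores had a median of 25 and reached 92.5, and among the 15 members a median of 58.5. BMAL1 and CLOCK scores are not stated to share a scale, so only their order within each list is meaningful.

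**Figure D2:**
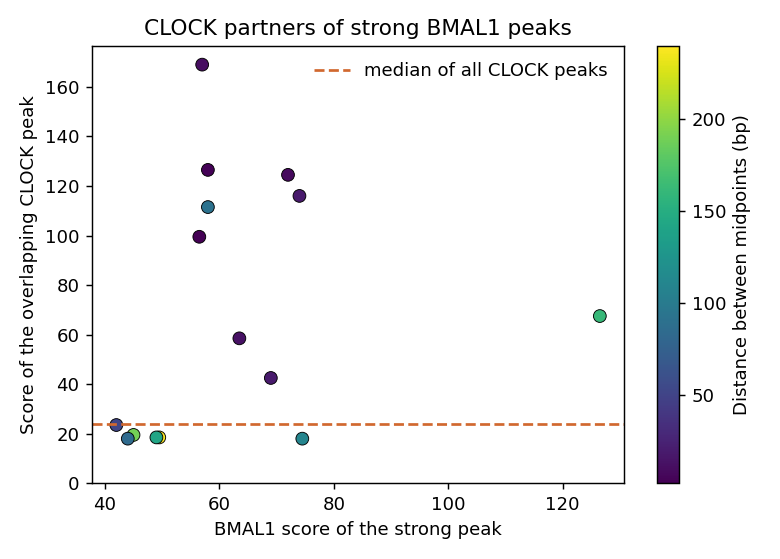
Score of the overlapping CLOCK peak against the BMAL1 score for the 15 members that share one; each point is a region, the colour gives the distance between the midpoints in bp, and the dashed line is the median of all CLOCK peaks, 24. The 5 members scoring under 50 lie below the line, and 9 of the other 10 lie above it at 42.5 or more. No trend over these 15 points was tested.

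Where CLOCK scored high, its peak and that of BMAL1 were mostly closely aligned. Midpoints lay within 20 bp of each other at 7 members, all with a CLOCK score of 42.5 or more. These included chr10:88731028-88731424 with 2 bp, chr16:33889197-33889593 with 3 bp, chr4:2414678-2415074 with 8 bp and chr22:18688025-18688421 with 11 bp. At the 6 members with CLOCK scores below the median the distance ran from 52 to 240 bp. The member chr8:6149240-6149636, with a CLOCK score of 67.5, also had a wide offset of 161 bp, and chrX:153523618-153524014, with one of 111.5, had 92 bp. Over all 15 the distance was within 100 bp at 10 and the whole BMAL1 peak lay inside the CLOCK peak at 8. Among the 107 weaker shared peaks 74 lay within 100 bp. In the authors' deposited table of common regions, all 15 appeared with exactly the bases shared by the peaks of both lists. That table holds the regions common to these same lists, so the match checks only the overlap calculation.

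Near misses were few. A CLOCK midpoint within 10000 bp but no overlap was found at 4 members (1.16%, interval 0.318 to 2.95%), beside 0.549% of all BMAL1 peaks outside the excluded areas. They were chr5:175116510-175116906, 1510 bp from a CLOCK peak scoring 18, and chr3:5023434-5023830, 5063 bp from one scoring 29. The other two were chr17:38231716-38232112, 6699 bp from one scoring 19.5, and chr8:21763196-21763592, 8512 bp from one scoring 18.5. For the 329 members without overlap the median distance to the nearest CLOCK midpoint was 3352470 bp, close to the 3345152 bp of the 8649 weaker peaks without overlap. The lower quartiles were 732116 and 1066579 bp, while the 10th percentiles were alike at 308635 and 312264 bp and the 90th were 23542447 and 16996993 bp, so no one order held over the range.

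Members were spread over 23 chromosomes, but unevenly. By the rule itself 3.78% of the listed peaks outside the excluded areas were members, and nothing is read from that share. Chromosome 1 held 68 members even without its block, which is 19.8% of members (exact 95% interval 15.7 to 24.4%) and 12.2% of weaker peaks. Chromosome 8 held 38, or 11.05% of members (interval 7.94 to 14.8%) and 6.84% of weaker peaks. Of the listed peaks, 5.98% on chromosome 1 (interval 4.67 to 7.52%) and 5.97% on chromosome 8 (interval 4.26 to 8.10%) scored 40 or more, followed by 5.41% on chromosome 17 (21 members, interval 3.38 to 8.15%). Only on chromosomes 1 and 8 did the interval lie wholly above the pooled share. Chromosome 6 had 27 members, chromosome 2 had 26, and chromosomes 5 and 11 had 23 each.

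At the other end, few members lay on the small chromosomes and X. There were 2 members each on chromosomes 18, 22 and X, 3 on chromosome 20 and 1 each on 21 and Y. Listed peaks there were also fewer, and the shares of 1.27% on chromosome 18, 1.29% on 20, 1.00% on 21, 1.19% on 22 and 1.57% on X had wide intervals. Of these, the interval lay wholly below the pooled share only for chromosome 20, at 0.266 to 3.72%. On chromosome 8 the weaker peaks also had the highest median score of any chromosome, 16, and on chromosome 1 it was 15, against 14 for all weaker peaks. Chromosome 21, with 1.00% members, had a median of 15 as well, and over the 22 chromosomes with at least 50 peaks the Spearman correlation of this median with the share of members was 0.26, both being taken from the same scores. Of the 15 members with a CLOCK peak, 2 each lay on chromosomes 1, 9, 10, 16 and 17 and 1 each on chromosomes 4, 7, 8, 22 and X. Chromosome 8 had 1 such member among its 38, and chromosome 6 had 0 among its 27. With 4.36% of all members sharing a CLOCK peak, nothing is read from counts this small.

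**Figure D3:**
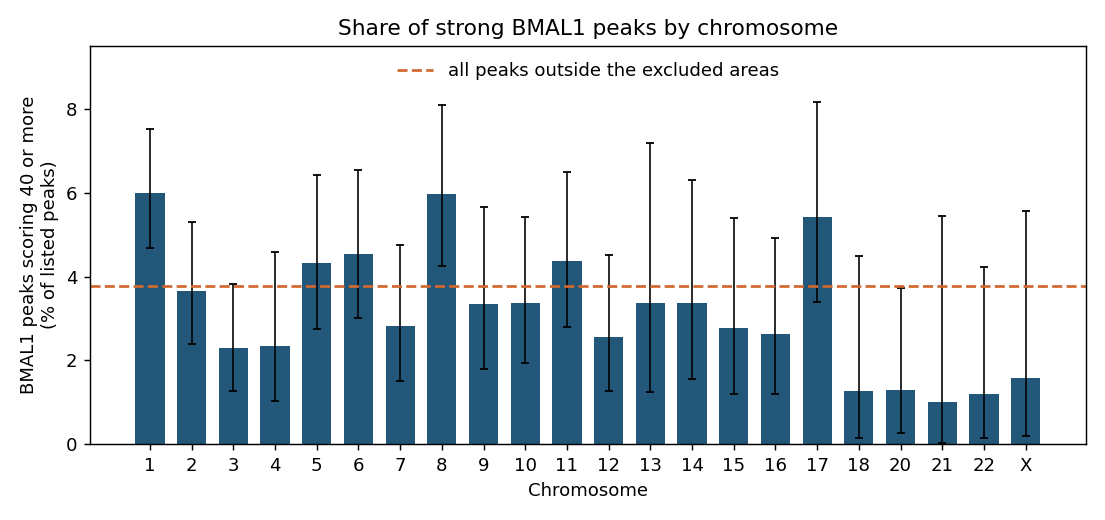
Percent of listed BMAL1 peaks that score 40 or more on each chromosome with at least 50 peaks, chromosome 19 and the chromosome 1 block left out; bars are shares, error bars exact 95% intervals and the dashed line the pooled 3.78%. Chromosomes 1 and 8 stand at 5.98% and 5.97%, with intervals above the line.

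The lists bear on these counts because they lack some ranks. Peak numbers rise as the score falls within a chromosome, block included, so a missing number marks an unlisted rank of unknown position. Up to the lowest-ranked member of each chromosome, 153 of 529 numbers were absent (28.9%). Off chromosome 1 it was 80 of 356 (22.5%), beside 2815 of 10778 (26.1%) over all numbers there, chromosome 19 left out. On chromosome 1 it was 73 of 173 (42.2%), beside 1623 of 2810 over all its numbers. The pooled strong ranks were thus not absent more often than ranks in general, but single chromosomes differed in both directions. Up to the lowest-ranked member, chromosome 10 lacked 16 of 32, and chromosomes 2 and 4 lacked 12 of 38 and 12 of 20. Over all their numbers, chromosomes 10, 2 and 4 lacked 198 of 672, 194 of 906 and 105 of 445. Chromosomes 12, 13, 14 and 15 lacked none, chromosome 17 lacked 1 of 22 and chromosome 8 lacked 4 of 42. Over all their numbers, chromosomes 17 and 8 lacked 86 of 474 and 344 of 981. The strong ranks of chromosome 8 were thus more complete than its ranks in general, which bears on its share of members. Among the chromosomes with few members, 18 lacked 4 of 6, 22 lacked 3 of 5 and 20 lacked 1 of 4. Chromosome X lacked 1 of 3, and 21 and Y lacked 1 of 2 each, so strong ranks were incomplete on each of these chromosomes. The members are therefore the listed strong peaks rather than all strong peaks, and the chromosome shares and spacings refer to listed peaks alone. The part of the absent ranks in the differences between chromosomes was not tested.

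Members stood somewhat closer to other BMAL1 peaks than weaker peaks did. The median distance to the nearest listed BMAL1 midpoint was 29204 bp for members, with quartiles of 10674 and 84200 bp, and 41244 bp for weaker peaks, with quartiles of 12994 and 118618 bp. Within 10000 bp, 83 members (24.1%, interval 19.7 to 29.0%) had another listed peak, against a background of 20.2% and 20.1% of weaker peaks (interval 19.3 to 20.9%). These intervals overlap. Within 100000 bp it was 271 members (78.8%, interval 74.1 to 83.0%), against a background of 71.6% and 71.4% of weaker peaks (interval 70.4 to 72.3%). At the far end, 8 members (2.33%, interval 1.01 to 4.53%) had no other listed peak within 500000 bp, against a background of 4.73%. Among weaker peaks it was 4.82% (interval 4.38 to 5.29%), and the intervals overlap.

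Chromosome 1 carried much of this. There the median distance was 15894 bp for members and 32294 bp for weaker peaks, and 36.8% of members had another listed peak within 10000 bp (25 of 68, interval 25.4 to 49.3%), with 25.1% of weaker peaks. Off chromosome 1 the medians were 34912 and 42547 bp, and the shares 21.0% (58 of 276, interval 16.4 to 26.3%) and 19.4% (interval 18.5 to 20.3%), with overlapping intervals. Within 100000 bp the shares on chromosome 1 were 92.6% of members (interval 83.7 to 97.6%) and 78.9% of weaker peaks (interval 76.3 to 81.3%). Elsewhere they were 75.4% (208 of 276, interval 69.8 to 80.3%) and 70.3% (interval 69.3 to 71.3%), and these intervals overlap. Members with a CLOCK peak were farther from other BMAL1 peaks than the rest, with a median of 75280 bp for the 15 and 27566 bp for the 329. Among weaker peaks the corresponding medians were 46138 and 41216 bp. The ranges of the members overlapped widely, from 5085 to 2003314 bp with a CLOCK peak and from 958 to 30173350 bp without.

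**Figure D4:**
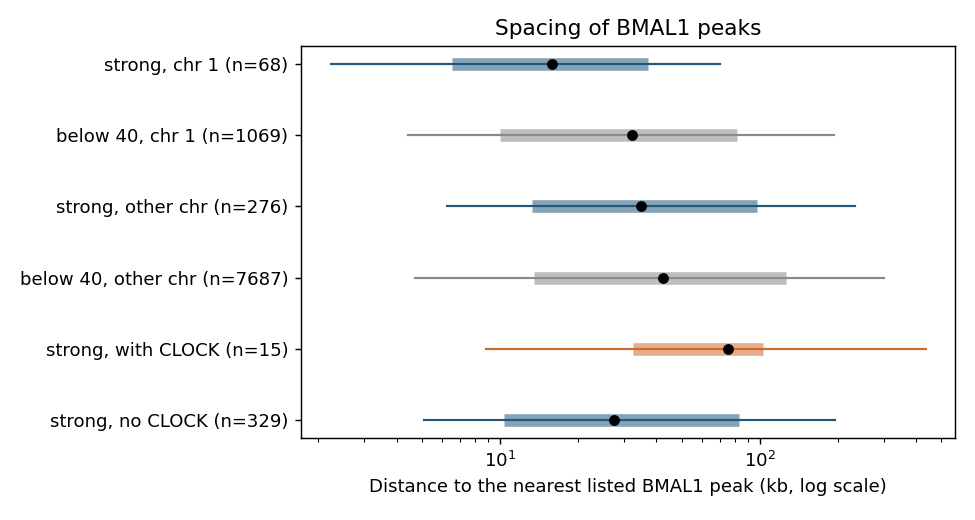
Distance to the nearest listed BMAL1 peak in kb on a log scale for members and weaker peaks on and off chromosome 1, and for members with and without a CLOCK peak; dots are medians, thick bars quartiles and thin lines the 10th to 90th percentiles. The members of chromosome 1 have the shortest median, 15894 bp, and the members with a CLOCK peak the longest, 75280 bp.

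Pairs of strong peaks were rare and mostly on chromosome 1. In 8 pairs, holding 16 members (4.65%), midpoints lay within 10000 bp, and 5 of these pairs were on chromosome 1. The closest was chr1:154378683-154379079, scoring 45, and chr1:154379662-154380058, scoring 61.5, at 979 bp. Next came chr1:201682691-201683087 and chr1:201684752-201685148, scoring 41.5 and 56, at 2061 bp. The pair chr1:156472611-156473007 and chr1:156475044-156475440, scoring 46.5 and 48.5, was 2433 bp apart. On chromosome 5, chr5:400106-400502 and chr5:403208-403604, scoring 173.5 and 57, were 3102 bp apart. No pair contained a CLOCK peak, and neither did the other 6 of the 10 closest pairs. At the 4.36% of all members, these pairs are too few for that absence to be read as a trait.

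The other pairs within this distance were less tight. Scores of 49 and 41 belonged to chr1:158255646-158256042 and chr1:158260135-158260531, at 4489 bp. The pair chr2:133012389-133012785 and chr2:133019257-133019653, scoring 69.5 and 50, was 6868 bp apart. At chr14:35016196-35016592 and chr14:35024945-35025341 the scores were 68.5 and 86.5 and the distance 8749 bp. The last, chr1:236096838-236097234 and chr1:236105641-236106037, scored 51.5 and 51 at 8803 bp. Beyond 10000 bp, the next closest were chr1:145114564-145114960 and chr1:145127935-145128331, scoring 122 and 60 at 13371 bp, and the latter with chr1:145152903-145153299, scoring 41.5, at 24968 bp. Within 100000 bp 54 members (15.7%) had another member, and within 1000000 bp 148 did (43.0%).

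Strong peaks had a strong nearest neighbour more often than weaker peaks did on chromosome 1, and about as often elsewhere. Neighbour scores belong to the list that chose the members, so they are given as a description. For 8.14% of members (28 of 344) the nearest listed BMAL1 peak also scored 40 or more, and for 3.64% of weaker peaks (319 of 8756). On chromosome 1 it was 17 of 68 members (25.0%), for 1 of which the neighbour lay in the left-out block, beside 5.05% of the weaker peaks there (54 of 1069). Elsewhere it was 11 of 276 members (3.99%, interval 2.01 to 7.02%), near the 3.45% of weaker peaks (265 of 7687). Where the nearest peak was within 10000 bp it was 16 of 83 members (19.3%) and 63 of 1759 weaker peaks (3.58%). From 10000 to 100000 bp it was 9 of 188 members (4.79%), near the 3.85% of weaker peaks (173 of 4489). Weaker peaks within 10000 bp of a member had a median score of 19 (75 peaks), those from 10000 to 100000 bp one of 16 (560 peaks), and those more than 1000000 bp away one of 14 (5910 peaks). The corresponding CLOCK overlaps were 2 of 75, 6 of 560 and 68 of 5910, or 2.67, 1.07 and 1.15%, with overlapping intervals.

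In windows of 1 Mb most members were alone. Members occupied 277 windows, and in 228 of them a single member was listed, while 13 windows held 3 or more. Of these 13, 5 were on chromosome 1 and 0 had a CLOCK overlap among their BMAL1 peaks. The general shares were 1.34% of all BMAL1 peaks outside the excluded areas and 4.36% of members. As these windows held only 44 members, nothing is read from this 0. The richest window, from 145000000 to 146000000 on chromosome 1, held 6 members among 18 listed peaks, with a median score of 33.2. Its members were chr1:145003145-145003541 with 42, chr1:145114564-145114960 with 122, chr1:145127935-145128331 with 60, chr1:145152903-145153299 with 41.5, chr1:145281685-145282081 with 101.5 and chr1:145449349-145449745 with 61.5. Further peaks there scored 37, 35, 34.5, 32 and 30, just under the limit. The nearest CLOCK midpoint was 3432551 bp or more away from all 6.

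On chromosome 5, 2 windows followed with 4 members each. The window at the start of the chromosome held 12 listed peaks, among them chr5:400106-400502 with 173.5, chr5:403208-403604 with 57, chr5:485973-486369 with 88 and chr5:568360-568756 with 52.5. Here high and low scores alternated, since most other peaks of the window scored from 10.5 to 18.5 and 1 scored 38.5. The window from 10000000 to 11000000 held 15 peaks, among them chr5:10172362-10172758 with 52.5, chr5:10490081-10490477 with 44.5, chr5:10632191-10632587 with 43 and chr5:10854576-10854972 with 60.5. Its members were spread over the window at least 142110 bp apart, with weaker peaks between them. These windows differ in layout, as the chromosome 1 window and the first of chromosome 5 were led by a few very high scores and the last by moderate ones.

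**Figure D5:**
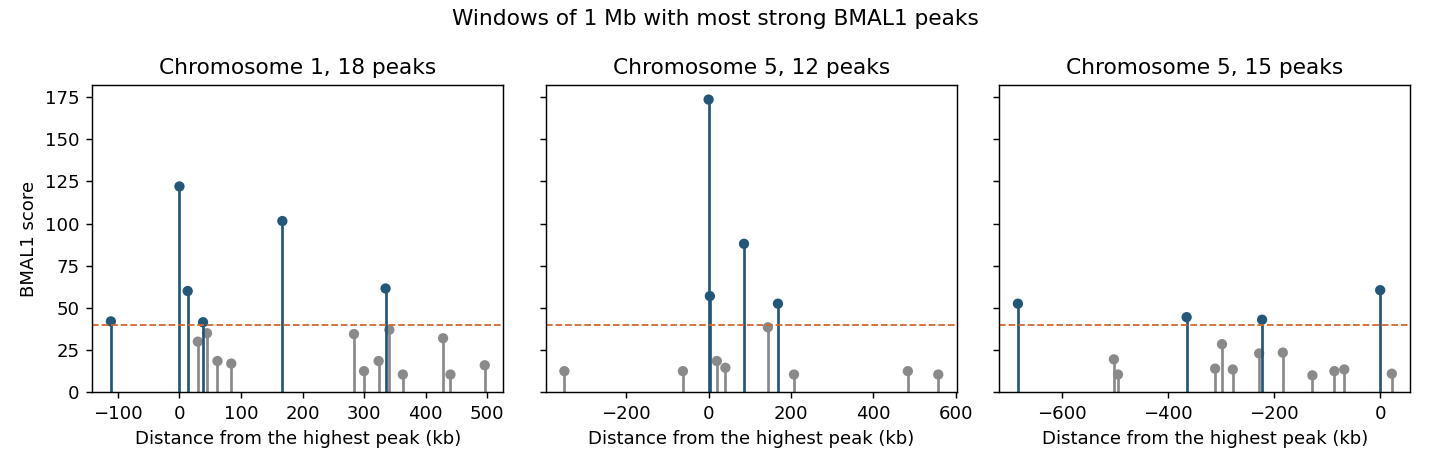
BMAL1 score of every listed peak in the 3 windows of 1 Mb with most members, against the distance in kb from the highest peak of the window; blue marks members, grey weaker peaks and the dashed line the limit of 40. The chromosome 1 window holds 6 members and several peaks of 30 to 37, and the first chromosome 5 window is led by scores of 173.5 and 88.

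On a scale of 10 Mb, most members lay outside the stretches richest in them. Among 195 stretches with at least 20 listed peaks, 64 had no member and the median share of members was 2.94%. In 9 stretches the share was 10% or more, and these, picked by that share, held 50 of the 344 members. The largest number was 16 of 129 peaks (12.4%, interval 7.26 to 19.4%) from 150000000 to 160000000 on chromosome 1, where the weaker peaks had a median of 18. The stretch before it, from 140000000, had 6 of 38 (15.8%, interval 6.02 to 31.3%). The first stretch of chromosome 5 had 4 of 23 (17.4%, interval 4.95 to 38.8%) and the second 6 of 47 (12.8%, interval 4.83 to 25.7%). On chromosome 8 the stretch from its start had 3 of 22 (13.6%, interval 2.91 to 34.9%). Those from 60000000 and 70000000 had 4 of 40 and 2 of 20, or 10.0% each (intervals 2.79 to 23.7% and 1.23 to 31.7%). The others were 5 of 44 (11.4%, interval 3.79 to 24.6%) from 40000000 on chromosome 2 and 4 of 40 (10.0%, interval 2.79 to 23.7%) from 90000000 on chromosome 1. Of the 50 members in these 9 stretches 1 overlapped a CLOCK peak, chr8:6149240-6149636, beside 4.36% of all members. In 7 of the 195 stretches the interval lay wholly above the pooled 3.78%. Among these were stretches with shares under 10%. They held 10 of 110 from 30000000 on chromosome 6 (9.09%, interval 4.45 to 16.1%) and 7 of 76 from 200000000 on chromosome 1 (9.21%, interval 3.784 to 18.1%).

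Some members bordered long stretches without any listed BMAL1 peak. Within 2 Mb of an edge of the longest such stretch of each chromosome lay 19 members (5.52%, interval 3.36 to 8.49%), against a background of 3.63% and 3.55% of weaker peaks (interval 3.17 to 3.96%). The intervals overlap. Of these 19, 8 were on chromosome 1, around a stretch of 22.7 Mb, and comprised the 6 members of the richest window together with chr1:120539202-120539598 and chr1:120687178-120687574, scoring 84.5 and 68. On chromosome 16 both edges of the longest stretch, 12.5 Mb, were members. One was chr16:33889197-33889593, scoring 58, with its CLOCK peak of 126.5, and the other was chr16:46385789-46386185, scoring 44.5, without one. The only member of chromosome Y, chrY:58972239-58972635 with 55, was also an edge, 30173350 bp from the next listed peak. Whether a peak could be called at all within these stretches was not examined, so they mark absence from the list only. The part of these edges in the scores was not tested. Leaving out all peaks within 2 Mb of these edges, 14 of 325 members (4.31%) and 100 of 8445 weaker peaks (1.18%) overlapped a CLOCK peak.

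Isolated members were of both kinds. The 8 with no other listed peak within 500000 bp included chr8:6149240-6149636 with its CLOCK peak, chr2:89872324-89872720, chr16:33889197-33889593 with its CLOCK peak and chrY:58972239-58972635. The others were chr2:162017175-162017571 with a score of 60, chr12:106645439-106645835 with 49, and chr8:119917507-119917903 and chr17:64464777-64465173 with 41 each. Thus 2 of these 8 shared a CLOCK peak, beside 4.36% of all members. The group is small and was chosen after its values were seen, so nothing is read from this count. At chromosome ends, 24 members (6.98%, interval 4.52 to 10.2%) lay within 2 Mb of the outermost listed peak of their chromosome, against a background of 5.27%. Among weaker peaks it was 5.21% (interval 4.75 to 5.69%), and the intervals overlap.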

How the data were processed

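ChIP-seq peak lists of BMAL1 and CLOCK from THP-1 cells were used. Each peak carries a score that the authors deposited, with no unit, scaling or cutoff stated. The HOMER peak caller is named per the file headers' source column, and build hg19, HOMER 4.7.2, Picard, SAMtools 1.2 and Bowtie 0.12.7 stand in the submitters' processing notes without their roles. The control used in peak calling is not given in the sources used here. Peaks were called in 1 library per factor, and sequencing depth is unknown from these files, so precision is limited to counting error over peaks.

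Distances run between midpoints, and overlap means at least 1 shared bp. Shares have exact Clopper-Pearson 95% intervals. No test over regions was run, since peaks of 1 library are not replicates. Members, lists and rules were chosen with earlier results of these data known. Named regions were the 20 highest members, every member with a CLOCK peak, the 10 closest pairs, the 3 windows of 1 Mb with most members, and 5 peaks on each side of the limit. Other named regions, such as near misses, isolated members and those beside peak-free stretches, were chosen after their values were seen. Overlap and distance calculations were tested on simulated data. The intervals came from scipy 1.17.1, the figures from matplotlib 3.10.9, and other steps from pandas 2.3.3 and numpy 2.4.6 under Python 3.11.15. Without a genome or annotation of that build in use, nearby genes, the planned gene lists, E-boxes and region sequences were not analysed here.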

Additional observations from a re-analysis of the deposited data

How the results depend on the processing

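Of 50 alternatives to 6 results, 43 stayed within the interval of the reported share or within 1.5 times the reported count, and 25 of the 50 were chosen after the data were seen. Among the 43 were 23 that left out 1 chromosome in turn. No chromosome held more than 2 of the 15 CLOCK overlaps, so these could move the share only little. Leaving out chromosome 1 was also counted as a planned setting. The alternatives recomputed members only, so they do not bear on the difference from weaker peaks. The 7 that moved follow from their construction, since other limits or distances select other peaks. A score limit of 30 gave 820 members and one of 50 gave 169. The share with another listed BMAL1 peak was 0.872% within 1000 bp and 78.8% within 100000 bp, and that with another member was 4.65% within 10000 bp and 43.0% within 1000000 bp. Without chromosome 1, 80 numbers of strong ranks were absent in place of 153. The share of members overlapping a CLOCK peak ran from 2.91% (midpoints within 100 bp) to 5.92% (score limit of 50) over the other settings, and from 3.88 to 4.73% with each of 23 chromosomes left out in turn. The share of members on chromosome 1 was 18.8% after merging members within 10000 bp into 336 sites. No paired analysis was possible because each factor has 1 library here. Alternatives for gene starts and E-boxes were not run. As depth is unknown, a site missing from a list is not shown to be unbound.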
